A study of Homo sapiens with 9 samples.

Results

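The mechanistic target of rapamycin (mTOR) is a kinase that works in a pair of protein complexes. Each complex is defined by its scaffold, and mLST8 and the inhibitor DEPTOR are found in both. With Raptor the kinase forms mTORC1, which promotes protein synthesis when nutrients and growth factors are at hand and which PRAS40 restrains. With Rictor, mSIN1 and Protor-1 it forms mTORC2, which phosphorylates AKT. The small GTPase Rheb activates mTORC1, and FKBP12 is the immunophilin through which the drug rapamycin reaches mTOR.

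The genes described here are the 10 that encode these proteins, chosen by symbol: *MTOR*, *RPTOR* (Raptor), *RICTOR*, *MLST8*, *DEPTOR*, *AKT1S1* (PRAS40), *MAPKAP1* (mSIN1), *PRR5* (Protor-1), *FKBP1A* (FKBP12) and *RHEB*. They are 10 of the 19984 protein-coding genes measured, and all 10 passed the filter on low values in every comparison. RNA-seq was made from LNCaP, an established line of androgen-responsive prostate cancer cells, in 3 clones. The clones del-4 and del-56 had lost the promoter and the first exons of *EPCART*, a long noncoding RNA gene, through CRISPR-Cas9, and WT was their wild-type control clone from the same line. Each clone gave 3 cultures grown for 48 h in RPMI medium with serum and no further treatment, and each culture gave 1 library. WT cells were represented by 1 clone, and within each comparison an effect of the deletion and other differences between clones cannot be told apart.

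The reads on genes numbered 91074556 to 118877134 per library. Of 8 luminal prostate markers 6, *KLK3*, *HOXB13*, *KRT8* and *KRT18* among them, had mean normalized counts above those of all 10 genes in every clone, whereas *KLK2* and *TMPRSS2* lay below *FKBP1A*. Of 11 markers of other cell types, *CD3E* (T cells) and *CDH5* (endothelium) were at 0 in every library. *COL1A1*, a fibroblast collagen, had means of 990.9 in WT, 1253 in del-4 and, for del-56, 1258, and the basal keratin *KRT14* had means of 26.9 to 40.3. The others had means of at most 11.8, the value of the leukocyte gene *CD14* in del-56. *COL1A1* was called higher in both clones, by 0.33 and 0.34 (log2), and *CD14* in del-56, by 2.91 (adjusted p = 0.0106, limma), and their part in the results was not tested. *EPCART* itself was not analysed here.

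Of the 10 genes, *MTOR* and *FKBP1A* exceeded their WT level in del-4 as well as del-56, and *MLST8* and *RHEB* were lower in both. *FKBP1A* rose by 41.9% in del-4 and 42.8% in del-56, *MTOR* by 16.8% and 25.8%, while *MLST8* was down to 0.841 and 0.689 of the WT level. Each library pools the RNA of many cells, so fewer expressing cells and less RNA per cell cannot be told apart. The scaffolds *RPTOR* and *RICTOR*, which set apart mTORC1 and mTORC2, did not pass the test in either clone. A gene was called at a Benjamini-Hochberg adjusted p under 0.05 over all genes tested (limma). By this rule 5 of the 10 genes were called in del-4, where 40.7% of all genes were, and 5 in del-56, where 39.7% of all genes were. In del-4, 2 were higher (20.5% of all genes were) and 3 lower (20.2%), and in del-56, 2 were higher (19.2%) and 3 lower (20.5%). The shares are near those of all genes, so the number of calls does not set this group apart. None of the 10 genes met the stricter thresholds of an unadjusted p under 0.05 with a log2 fold change beyond 1, which 5.82% of all genes met for del-4 and 5.94% for del-56. The 3 libraries of del-4 lay wholly above or below the 3 of WT for 6 of the 10 genes, against 49.5% of all genes, and those of del-56 for 7, against 48.7%.

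**Figure D1:**
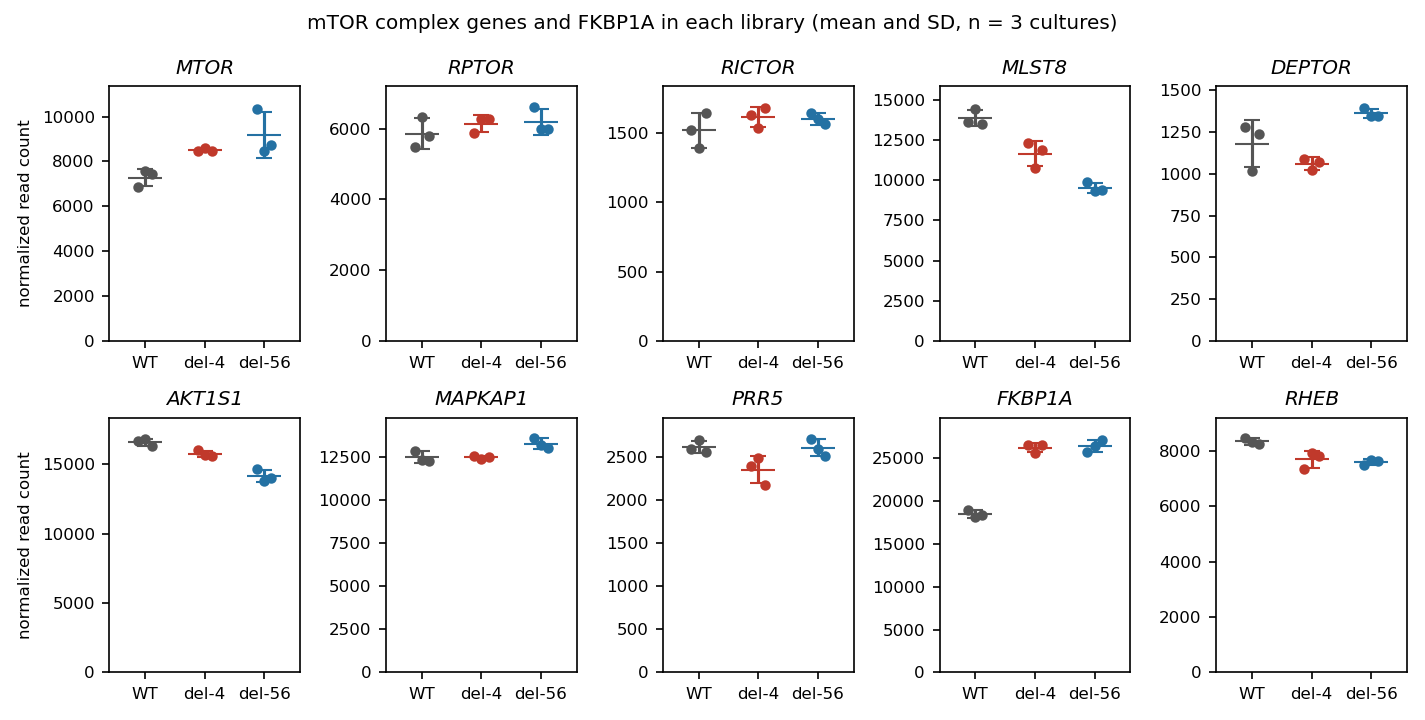
Normalized read count (vertical axes, from 0) of each of the 10 genes in WT (grey), del-4 (red) and del-56 (blue). Points are libraries, and the bar with whiskers is the mean with the SD of 3 cultures. The *FKBP1A* counts of both deletion clones, 25660 to 27121, lie above those of WT, 18183 to 18996, while *RPTOR* and *RICTOR* overlap between clones.

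*FKBP1A* (ENSG00000088832.18, chromosome 20, positions 1368977 to 1393164, minus strand, GRCh38) had normalized counts of 18996, 18183 and 18357 in the WT libraries, 26555, 25660 and 26589 in del-4 cultures, and 25798, 26413 and 27121 in the del-56 cultures. The deletion clones stood far above WT and overlapped with each other. The log2 fold change against WT was 0.50 in del-4 (SE 0.034, adjusted p = 2.1e-09, limma) and 0.51 in del-56 (SE 0.037, adjusted p = 2.1e-08, limma). Between del-4 and del-56 it was -0.0095 (SE 0.036, adjusted p = 0.889, limma). The gene overlaps by 24120 bases with a readthrough gene on the same strand, ENSG00000274322, and its mean count was 97.5% of the count of that gene, so reads may be shared and the values cannot be separated.

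*MTOR* (ENSG00000198793.13, chromosome 1, positions 11106535 to 11262556, minus strand), the catalytic subunit of both complexes, had normalized counts of 6859, 7559 and 7420 in WT, 8448, 8584 and 8448 in del-4 cultures, and 10349, 8458 and 8744 in the del-56 cultures. All deletion libraries were above all WT libraries, and del-56 replicate 1 stood above the others. The log2 fold change was 0.22 in del-4 (SE 0.041, adjusted p = 0.00024, limma) and 0.33 in del-56 (SE 0.062, adjusted p = 0.0005, limma). Leaving out 1 library gave 0.18 to 0.25 for del-4 and 0.24 to 0.39 for del-56, and the gene was called each time.

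*MLST8* (ENSG00000167965.18, chromosome 16, positions 2204248 to 2209453, plus strand) encodes the subunit that stabilizes the kinase domain. Its normalized counts were 13596, 14428 and 13529 in WT, 12330, 10777 and 11874 in del-4 cultures, and 9902, 9326 and 9405 in the del-56 cultures. The 3 clones did not overlap, with WT highest and del-56 lowest. The log2 fold change was -0.25 in del-4 (SE 0.045, adjusted p = 0.00023, limma) and -0.54 in del-56 (SE 0.040, adjusted p = 3.7e-08, limma). The level was 0.29 (log2) higher in del-4 than in del-56 (SE 0.047, adjusted p = 0.00023, limma). As a result, the ratio of *MLST8* to *MTOR*, each per kilobase of exon, was 5.59 to 6.08 in the WT libraries, 3.85 to 4.48 in del-4 and 2.93 to 3.38 in del-56. *MLST8* shares 201 bases with *BRICD5* on the opposite strand, whose mean counts were 601.3 to 757.

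The sequence just before the start of the gene is shown for *MTOR* and *FKBP1A*, because they were the genes among the 10 that rose in both clones. The letters are the RefSeq bases of GRCh38.p14 that lie up to 250 bases before the RefSeq start and outside the gene as GENCODE annotates it, from 5′ to 3′ on the strand of the gene. Capitals mark the CCAAT box (CCAAT, searched on both strands, so that it reads ATTGG on the other strand). The *MTOR* stretch covers chr1:11262557-11262801 and the *FKBP1A* stretch chr20:1393165-1393304, both on the minus strand.
MTOR: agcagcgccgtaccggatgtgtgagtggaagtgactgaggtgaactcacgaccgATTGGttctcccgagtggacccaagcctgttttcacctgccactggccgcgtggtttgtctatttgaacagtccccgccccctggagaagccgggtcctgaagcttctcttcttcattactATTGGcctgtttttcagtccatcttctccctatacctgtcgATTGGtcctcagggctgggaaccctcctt
FKBP1A: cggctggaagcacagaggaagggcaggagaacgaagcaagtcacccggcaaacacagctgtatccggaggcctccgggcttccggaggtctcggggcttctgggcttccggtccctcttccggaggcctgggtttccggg
The *MTOR* stretch of 245 bases held 3 CCAAT boxes, and 2.88% of the 35116 RefSeq windows of the same length and place held at least 3. The *FKBP1A* stretch of 140 bases held none, while 17.5% of windows of that length and place held at least 1. The E-box CACGTG, the cyclic AMP response element TGACGTCA and the ETS motif CCGGAAGT were in neither stretch. They were searched on both strands as exact letters, so variants of them were not counted, and they overlapped no CCAAT box here. They occurred in 6.19%, 1.62% and 3.18% of windows of the longer length.

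*RHEB* (ENSG00000106615.10, chromosome 7, positions 151466012 to 151520120, minus strand) encodes the GTPase that switches on mTORC1. Its normalized counts were 8475, 8331 and 8238 in WT, 7355, 7920 and 7820 in del-4 cultures, and 7484, 7681 and 7659 in the del-56 cultures. The WT libraries were above all others, by a small margin. The log2 fold change was -0.12 in del-4 (SE 0.039, adjusted p = 0.022, limma) and -0.13 in del-56 (SE 0.037, adjusted p = 0.009, limma). In del-4 the call was lost without del-4 replicate 1 (adjusted p = 0.12), WT replicate 1 (0.0561) or WT replicate 2 (0.0563), and it was made with every other library left out.

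The inhibitors differed between the deletion clones. *AKT1S1* (ENSG00000204673.11, chromosome 19, positions 49869033 to 49878459, minus strand), which restrains mTORC1 until growth factors act, had counts of 16642, 16816 and 16315 in WT, 15985, 15669 and 15565 in del-4 cultures, and 14638, 13819 and 14030 in the del-56 cultures. The 3 clones did not overlap, and del-56 was lowest. The log2 fold change was -0.23 in del-56 (SE 0.037, adjusted p = 0.00012, limma) and -0.076 in del-4 (SE 0.034, adjusted p = 0.081, limma), and del-4 was 0.15 above del-56 (adjusted p = 0.0059, limma). In del-4 it was called after rescaling to the same total, at -0.145 (adjusted p = 0.00163, limma), and under quantile normalization, at -0.11 (adjusted p = 0.01, limma). Rescaling multiplies all counts of a library by 1 factor, so it moved nearly all genes of that comparison by about the same amount. The *AKT1S1* counts may include reads of an overlapping gene. *DEPTOR* (ENSG00000155792.10, chromosome 8, positions 119873717 to 120050918, plus strand) had counts of 1281, 1019 and 1241 in WT, 1091, 1021 and 1073 in del-4 cultures, and 1394, 1347 and 1346 in the del-56 cultures. WT replicate 2 fell at the level of del-4, so WT and del-4 overlapped, and del-56 lay above all other libraries. The difference between del-4 and del-56 was -0.36 (SE 0.070, adjusted p = 0.0012, limma), with log2 fold changes against WT of -0.15 for del-4 (adjusted p = 0.19, limma) and 0.21 for del-56 (adjusted p = 0.055, limma). Without WT replicate 2 the value in del-4 was -0.25 (adjusted p = 0.0243, limma), and without WT replicate 1 that in del-56 was 0.28 (adjusted p = 0.0282, limma). In del-56 it was also called with a filter at a mean of 10 (0.049), under quantile normalization (0.0478) and in 1 fit of all libraries (0.0429, adjusted p from limma).

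The mTORC1 scaffold *RPTOR* (ENSG00000141564.15, chromosome 17, positions 80544819 to 80966371, plus strand) had counts of 5477, 6319 and 5784 in WT, 5875, 6265 and 6282 in del-4 cultures, and 6612, 5977 and 5989 in the del-56 cultures. The mTORC2 scaffold *RICTOR* (ENSG00000164327.13, chromosome 5, positions 38937920 to 39074402, minus strand) had counts of 1519, 1392 and 1646 in WT, 1627, 1538 and 1680 in del-4 cultures, and 1645, 1598 and 1562 in the del-56 cultures. The clones overlapped for both genes. *RICTOR* shares 7677 bases with *OSMR* on the opposite strand, whose mean counts were 1102.6 to 1174.5. The *RICTOR* counts may include reads of that gene, since the use of strand in counting is not known. The log2 fold changes of *RPTOR* were 0.069 (SE 0.049, adjusted p = 0.29, limma) and 0.081 (SE 0.055, adjusted p = 0.27, limma), and those of *RICTOR* were 0.091 (SE 0.070, adjusted p = 0.33, limma) and 0.080 (SE 0.070, adjusted p = 0.41, limma). The ratio of *RPTOR* to *RICTOR* per kilobase spanned 4.59 to 5.93 in WT, a range that held all 6 deletion libraries, which lay between 4.72 and 5.32.

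*MAPKAP1* (ENSG00000119487.17, chromosome 9, positions 125437393 to 125707234, minus strand), which encodes the mSIN1 subunit of mTORC2, had counts of 12862, 12312 and 12254 in WT, 12568, 12390 and 12481 in del-4 cultures, and 13614, 13199 and 13004 in the del-56 cultures. Del-56 lay above the other clones, but the gene was not called in it, at 0.089 (SE 0.037, adjusted p = 0.070, limma), nor in del-4, at 0.00074 (SE 0.035, adjusted p = 0.99, limma). *PRR5* (ENSG00000186654.21, chromosome 22, positions 44668547 to 44737681, plus strand), for the mTORC2 subunit Protor-1, had counts of 2591, 2688 and 2552 in WT, 2395, 2483 and 2174 in del-4 cultures, and 2708, 2586 and 2512 in the del-56 cultures. Only del-4 lay apart from WT, with a log2 fold change of -0.15 (SE 0.057, adjusted p = 0.039, limma), against -0.0048 in del-56 (SE 0.052, adjusted p = 0.96, limma). The difference between the deletion clones, -0.15, did not pass the test (adjusted p = 0.093, limma). The *PRR5* call was lost without any 1 of del-4 replicates 1 and 3 and WT replicates 1, 2 and 3 (adjusted p 0.0523 to 0.214). It was also lost under quantile normalization, at -0.14 (adjusted p = 0.0702, limma). *PRR5* had 58.3% of the count of *PRR5-ARHGAP8*, a readthrough gene on the same strand. The 2 overlap by 35449 bases at the 3′ end of *PRR5*, so reads may be shared.

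Compared directly, del-4 and del-56 differed in 3 of the 10 genes, *MLST8*, *DEPTOR* and *AKT1S1*, against 19.9% of all genes. The libraries did not overlap for 5, which added *MAPKAP1* and *PRR5*, against 34.7% of all genes. These comparisons with WT and between the clones share libraries and are not independent of each other.

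Per kilobase of exon, a scale on which genes can be set side by side, *MLST8* (3177 ± 115, SD, n = 3) and *FKBP1A* (3099 ± 71.7) were the most abundant in WT, and their ranges overlapped. *AKT1S1* (2892 ± 44.3), *RHEB* (2363 ± 33.8) and *MAPKAP1* (1851 ± 49.8) followed, each apart from its neighbours in that order. *RPTOR* (569 ± 41.3) and *MTOR* (544 ± 27.7) overlapped, *PRR5* (498 ± 13.4) and *DEPTOR* (449 ± 53.7) overlapped, and *RICTOR* was lowest at 113 ± 9.44. In del-4 *FKBP1A* stood first alone at 4398 ± 88.2, and *MLST8* at 2674 ± 183 overlapped with *AKT1S1* at 2743 ± 38.1. In del-56 *FKBP1A* stood at 4427 ± 111, *AKT1S1* second at 2469 ± 74.1, and *MLST8* at 2189 ± 71.6 overlapped with *RHEB* at 2153 ± 30.5. *RICTOR* was the lowest of the 10 genes in both, at 120 ± 5.35 in del-4 and 119 ± 3.1 in del-56.

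To see whether a gene moved apart from its surroundings, each was set against the 50 expressed genes nearest to it on its chromosome, about 25 on each side, whose median was subtracted in each library before the same test was run for all genes. In del-4, 1 of the 10 genes, *FKBP1A*, was called relative to its neighbours, against 34.0% of all genes. In del-56 there were 3, *FKBP1A*, *MLST8* and *AKT1S1*, against 33.6% of all genes. Between del-4 and del-56 there were 3, *MLST8*, *DEPTOR* and *MAPKAP1*, against 18.0%.

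*FKBP1A* stood apart from the median of its neighbours, which moved little, although single neighbours changed. Of the 50, 9 were called higher and 9 lower in del-4, and 16 higher and 8 lower in del-56. The median of its neighbours was 0.037 for del-4 and 0.092 for del-56 (log2 fold change), and 47 and 44 of the 50 lay below *FKBP1A*, the readthrough gene that shares its reads being among the 50. Relative to them *FKBP1A* was 0.49 higher in del-4 (SE 0.039, adjusted p = 1.2e-08, limma) and 0.46 higher in del-56 (SE 0.041, adjusted p = 2.5e-07, limma). The next gene beyond it, *NSFL1C*, a cofactor of the ATPase p97, changed by 0.083 for del-4 (adjusted p = 0.122, limma) and 0.14 for del-56 (adjusted p = 0.0136, limma).

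*MTOR* rose within a stretch of chromosome 1 where most called genes were higher. Of its 50 neighbours 28 were called higher in del-4 and 2 lower, and 28 were higher in del-56 and 1 lower, with medians of 0.16 and 0.19. Relative to them *MTOR* was at 0.060 in del-4 (SE 0.040, adjusted p = 0.28, limma) and 0.14 in del-56 (SE 0.056, adjusted p = 0.070, limma), and it was called in neither. *EXOSC10*, an exosome nuclease and the nearest gene on one side, was higher by 0.15 and 0.27. With all genes of chromosome 1 in place of the nearest 50, *MTOR* was called in both clones, at 0.11 (adjusted p = 0.0405, limma) and 0.22 (adjusted p = 0.0109, limma). In del-56 it was also called with 24 neighbours, at 0.165 (adjusted p = 0.0328, limma), in 1 fit of all libraries (adjusted p = 0.0471, limma) and without del-56 replicate 2, at 0.19 (adjusted p = 0.0218, limma).

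*MLST8* lay in a stretch of chromosome 16 where most genes were lower. Of its 50 neighbours 36 were called lower and 0 higher in del-4, and 39 lower and 1 higher in del-56, with medians of -0.33 and -0.37. Relative to them *MLST8* was at 0.072 in del-4 (SE 0.047, adjusted p = 0.26, limma), the opposite sign to its own change, and at -0.16 in del-56 (SE 0.038, adjusted p = 0.0035, limma). The difference between the deletion clones, 0.23, held relative to the neighbours (SE 0.047, adjusted p = 0.0017, limma). Without del-4 replicate 2 the relative value in del-4 was 0.13 and called (adjusted p = 0.0303, limma), and with 24 neighbours that in del-56 was -0.10 and not called (adjusted p = 0.0633, limma). *CASKIN1*, the nearest gene on one side, was not called, at 0.053 and -0.022.

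**Figure D2:**
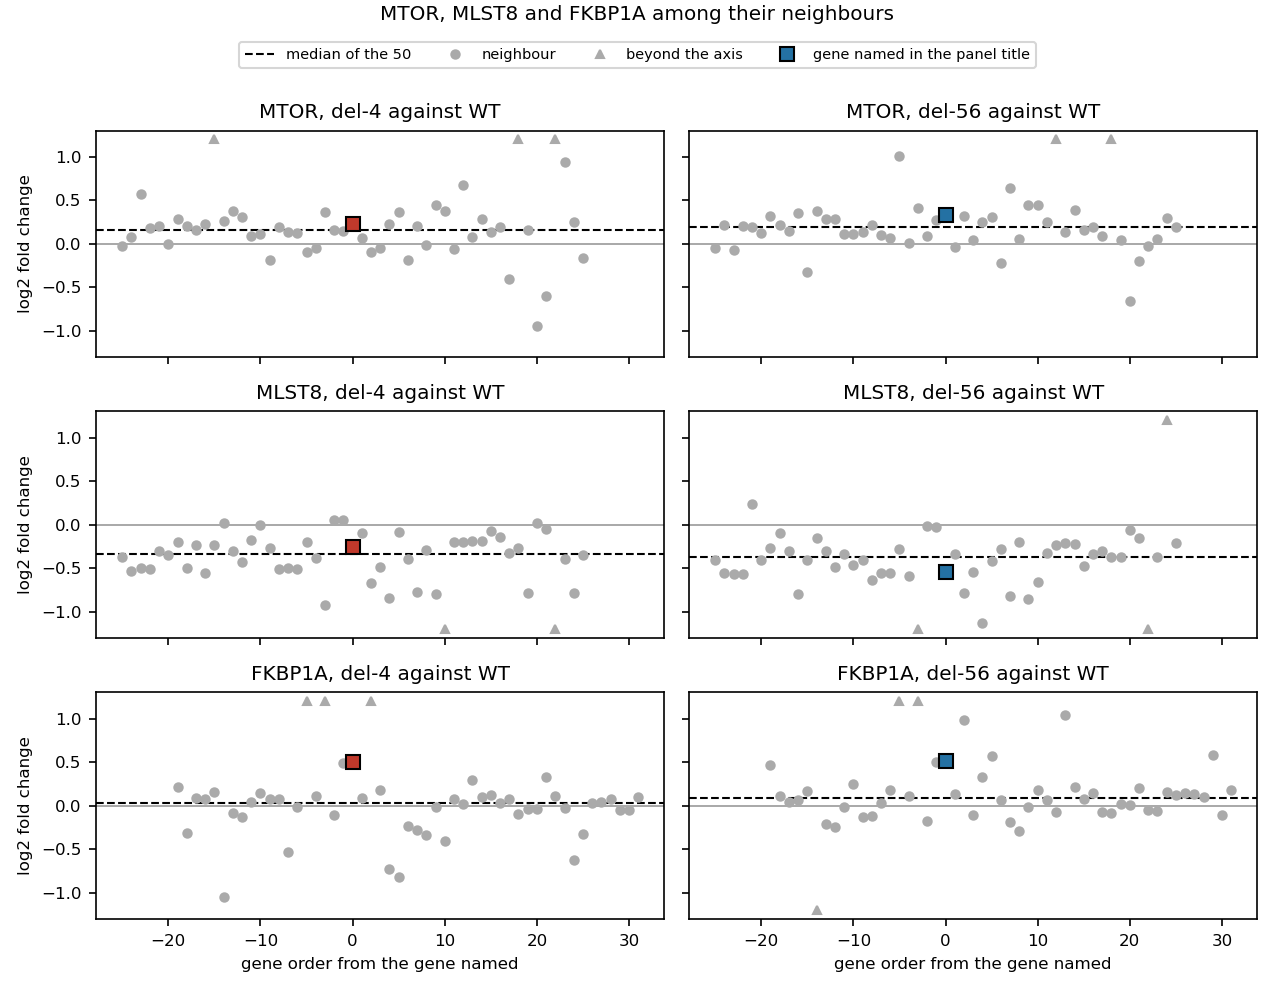
Log2 fold change (vertical axes) of *MTOR*, *MLST8* and *FKBP1A* (squares) and of their 50 neighbours (grey) in gene order, for del-4 (left) and del-56 (right) against WT. The dashed line is the neighbours' median, and triangles are genes beyond the axis. Around *MLST8* the median is -0.33 and -0.37, around *MTOR* 0.16 and 0.19, and around *FKBP1A* near 0.

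*RHEB* had neighbours at -0.088 in del-4 and -0.078 in del-56, and relative to them it was at -0.042 (adjusted p = 0.47, limma) and -0.070 (adjusted p = 0.20, limma). With the whole chromosome it was called in del-56, at -0.11 (adjusted p = 0.0345, limma). *AKT1S1* in del-56 was 0.12 below neighbours that were themselves at -0.11 (adjusted p = 0.018, limma), a call lost without del-56 replicate 2 (0.0509) or del-56 replicate 3 (0.0539). In del-4 it was at -0.078 and not called (adjusted p = 0.12, limma), but it was called under quantile normalization (-0.10, adjusted p = 0.0246) and with the whole chromosome (-0.10, adjusted p = 0.0235). *DEPTOR* had neighbours near 0 in both clones and lay at -0.13 (adjusted p = 0.26, limma) and 0.22 (adjusted p = 0.051, limma) relative to them. The value in del-56 was called with 24 neighbours, at 0.24 (adjusted p = 0.0281), with a filter at a mean of 10 (0.045), in 1 fit of all libraries (0.0402) and without WT replicate 1 (0.0305). Its difference between del-4 and del-56 was -0.34 relative to them (SE 0.072, adjusted p = 0.0024, limma). *MAPKAP1* was on this scale lower for del-4 than for del-56, by 0.11 (adjusted p = 0.039, limma), a call lost without any 1 of the 6 libraries (adjusted p 0.0667 to 0.126). In del-4 against WT it was at -0.081 (adjusted p = 0.092, limma), and it was called there under quantile normalization (-0.098, adjusted p = 0.0339). *RPTOR*, *RICTOR* and *PRR5* were not called relative to 50 neighbours in any comparison. With 24 neighbours *RICTOR* in del-56 was at 0.24 and called (adjusted p = 0.0141, limma), against 0.093 with 50.

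**Figure D3:**
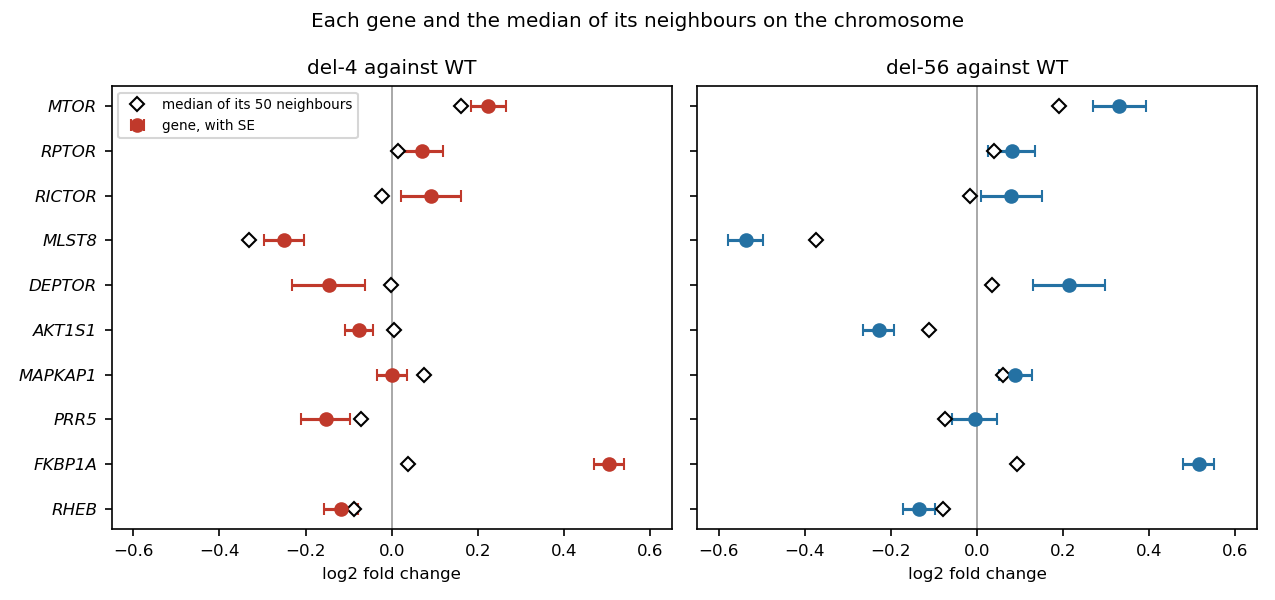
Log2 fold change against WT (horizontal axes) of each of the 10 genes, with SE from limma (filled points), and the median of its 50 neighbours (open diamonds), for del-4 and del-56. *FKBP1A* lies 0.49 and 0.46 from its neighbours on the fitted scale, and *MTOR* and *MLST8* lie on the side of 0 to which their neighbours moved.

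Other genes of the pathway sit on the same chromosomes. After these values were seen, the pathway genes of chromosome 16 and of chromosome 1 up to position 120000000 were counted apart. On chromosome 16, 10 genes of the 10 listed here and the pathway lists below were tested, *MLST8* among them, and 8 were lower and 1 higher for del-4, with 9 lower and 0 higher in del-56. Over all tested genes of chromosome 16, 69.7% were lower in del-4 and 65% in del-56. *TSC2* (tuberin, which turns Rheb off), *NPRL3*, *WDR24* and *WDR59* (subunits of the GATOR complexes), *TELO2* (assembly of mTOR kinases) and *PDPK1* (the kinase PDK1) were among those lower in both. Relative to neighbours, 3 of the 10 were higher and 3 lower in each clone. *TSC2* was at -0.19 (adjusted p = 0.0017, limma) and -0.28 (adjusted p = 0.00029, limma) as measured, and at 0.13 (adjusted p = 0.030, limma) and 0.12 (adjusted p = 0.058, limma) relative to its neighbours. On the first part of chromosome 1, 11 pathway genes were tested with *MTOR*, and 7 were higher and 1 lower in del-4 and 8 higher and 0 lower in del-56. Of all tested genes there, 54.2% were higher in del-4 and 51.6% in del-56. Relative to neighbours, 4 of the 11 were higher and 3 lower in del-4, and 3 higher and 2 lower in del-56.

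**Figure D4:**
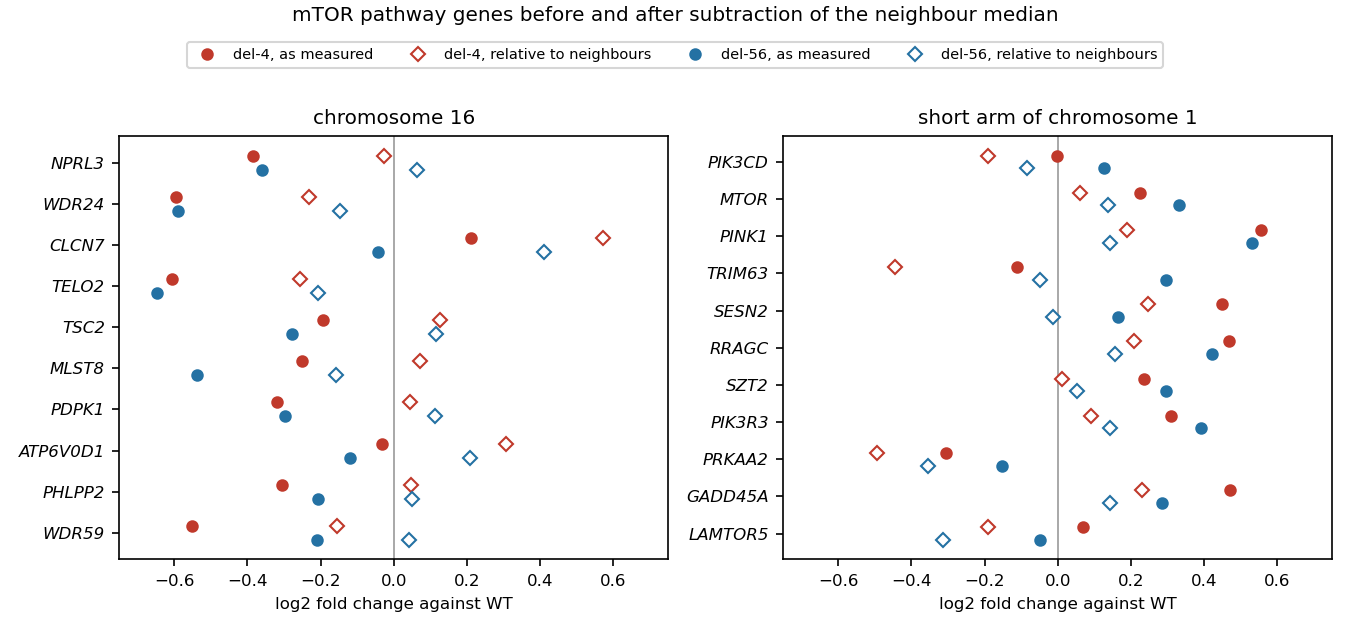
Log2 fold change against WT (horizontal axes) of pathway genes on chromosome 16 and on the short-arm side of chromosome 1, in chromosome order, as measured (filled) and relative to the median of 50 neighbours (open), for del-4 (red) and del-56 (blue). *MLST8* moves from -0.25 to 0.072 in del-4 and from -0.54 to -0.16 in del-56.

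The genes that feed signals to the complexes were counted in lists, to be read against all genes tested, of which 20.5% were higher and 20.2% lower for del-4, while del-56 had 19.2% and 20.5%, with medians of -0.0028 and -0.0011 (log2). In the amino acid branch, 6 of 13 genes of the Rag GTPases, Ragulator and their partners were higher and 1 lower in del-4, and 4 were higher and 0 lower in del-56, with medians of 0.18 and 0.094. The higher genes made up 46.2% and 30.8% of the list. *RRAGC*, a Rag GTPase on chromosome 1, was higher by 0.47 and 0.42, and the folliculin partners *FNIP2* and *FNIP1* by 0.22 and 0.46 and by 0.18 and 0.14. Of 18 genes of GATOR, KICSTOR and the nutrient sensors, 4 were higher and 6 lower in del-4, and 6 higher and 5 lower in del-56. *SESN3*, a sestrin that restrains mTORC1, had 8663 to 9548 normalized counts in WT, 15284 to 16115 in del-4 and 17672 to 21245 in del-56. Its log2 fold changes were 0.80 (adjusted p = 3.5e-11, limma) and 1.06 (adjusted p = 8.2e-10, limma), larger in size than those of any of the 10 complex genes. *SAMTOR*, the methionine sensor, was higher by 0.48 and 0.45, and *WDR24* lower at -0.59 and -0.59.

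Of 11 genes of the TSC complex and energy input, 3 were higher and 3 lower in del-4, and 2 higher and 3 lower in del-56. *PRKAA1*, a catalytic subunit of the energy sensor AMPK, was lower at -0.40 and -0.54, and its regulatory partner *PRKAG1* was higher by 0.25 and 0.16. *TSC1* (hamartin) was not called, at -0.028 (adjusted p = 0.75, limma) and 0.13 (adjusted p = 0.11, limma).

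Of 18 genes of PI3K and AKT signaling, 8 were higher and 4 lower in del-4, and 8 higher and 5 lower in del-56, with medians of 0.13 and 0.060. The higher genes were 44.4% of the list in each clone, against 20.5% and 19.2% of all genes, and the lower ones 22.2% and 27.8%, against 20.2% and 20.5%. *IGF1R*, a growth factor receptor, had counts of 3925 to 4975 in WT, 8421 to 9800 in del-4 and 7564 to 7757 in del-56, a log2 fold change of 1.0 (adjusted p = 2.0e-09, limma) and 0.78 (adjusted p = 1.1e-07, limma). Of the PI3K regulatory subunits, *PIK3R1* was lower at -0.46 and -0.36 and *PIK3R3* higher by 0.31 and 0.39. *PIK3R2*, named after its values were seen, was higher by 0.15 and 0.13. Relative to its neighbours on chromosome 1, *PIK3R3* was at 0.091 (adjusted p = 0.054, limma) and 0.14 (adjusted p = 0.0055, limma). *AKT2* was higher by 0.23 and 0.13, and *AKT1* was at 0.035 and 0.047, not called in either. The insulin receptor *INSR* was higher by 0.13 and 0.25, while its adaptor *IRS1* was higher by 0.65 in del-4 but lower, at -0.36, in del-56.

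Of 5 mTORC2 and assembly partners, 0 were higher and 2 lower in del-4, and 0 higher and 1 lower in del-56. *TELO2* was lower at -0.61 and -0.65. *RHEBL1*, a relative of *RHEB*, was scarce, with means of 37.7 normalized counts in WT, 17.1 in del-4 and, for del-56, 20.6, and was lower in del-4 at -1.1 (adjusted p = 0.029, limma) and not called in del-56 at -0.88 (adjusted p = 0.084, limma).

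Of 17 substrates of the complexes, 6 were higher and 2 lower in del-4, and 4 higher and 4 lower in del-56, with medians of 0.063 and 0.12. In del-56 each direction held 23.5% of the list, near the 19.2% and 20.5% of all genes. *RPS6KB1*, the ribosomal S6 kinase, was not called, at -0.011 and 0.12 (adjusted p = 0.87 and 0.075, limma). *EIF4EBP1*, the repressor of cap-dependent translation, was higher by 0.22 in del-4 but lower, at -0.11, in del-56. *PDCD4*, a translation inhibitor degraded after S6 kinase acts on it, had counts of 15934 to 16759 in WT, 20322 to 20487 in del-4 and 18612 to 20670 in del-56, and rose by 0.33 and 0.29. Among substrates of mTORC2, *SGK2* was higher by 1.93 and 2.39 at low counts, and *PRKCA* by 0.99 and 0.72. *SGK1* was lower in del-56 at -1.19 (adjusted p = 0.00073, limma) and not called in del-4 at -0.11, and *SGK3* was called in neither, at 0.066 and 0.12. *SGK1* and *SGK3* were added after their values were seen. *LPIN1*, a phosphatidate phosphatase, was lower at -0.55 and -0.62.

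Of 16 other FKBP genes, 5 were higher and 2 lower in del-4, and 4 higher and 5 lower in del-56. *FKBP5*, an androgen-induced cochaperone of steroid receptors, was higher by 0.36 and 0.32, and on the 5 libraries used for count tests DESeq2 did not call it in del-56 (0.27, adjusted p = 0.215). *FKBP1B* (FKBP12.6), a relative of *FKBP1A*, had 44.5, 27.0 and 26.4 normalized counts in WT, 13.4, 18.1 and 29.1 in del-56, and 0 in all 3 del-4 libraries. Against a floor of 3 reads per library it was at least 11-fold lower in del-4 than in WT, and in del-56 it was not called (adjusted p = 0.22, limma). Even in WT it had a small part of the *FKBP1A* count.

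Genes downstream of mTORC1 and AKT were also listed. Of 19 lysosomal targets of TFEB, a transcription factor that mTORC1 keeps out of the nucleus, 11 were higher and 1 lower in del-4, and 4 higher and 5 lower in del-56, with medians of 0.20 and 0.032. The higher genes were 57.9% and 21.1% of the list, against 20.5% and 19.2% of all genes. *NEU1* (sialidase) was higher by 0.31 and 0.44, and *TPP1* (tripeptidyl peptidase) by 0.46 and 0.29. Of the targets of FOXO, transcription factors that AKT inactivates, 5 were higher and 4 lower among 12 tested in del-4, and 5 higher and 4 lower among 11 in del-56. *FBXO32* (atrogin) was lower at -1.38 and -1.01 and *TXNIP* at -0.42 and -0.38, while *PINK1*, a mitochondrial kinase gene on chromosome 1, was higher by 0.56 and 0.53.

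**Figure D5:**
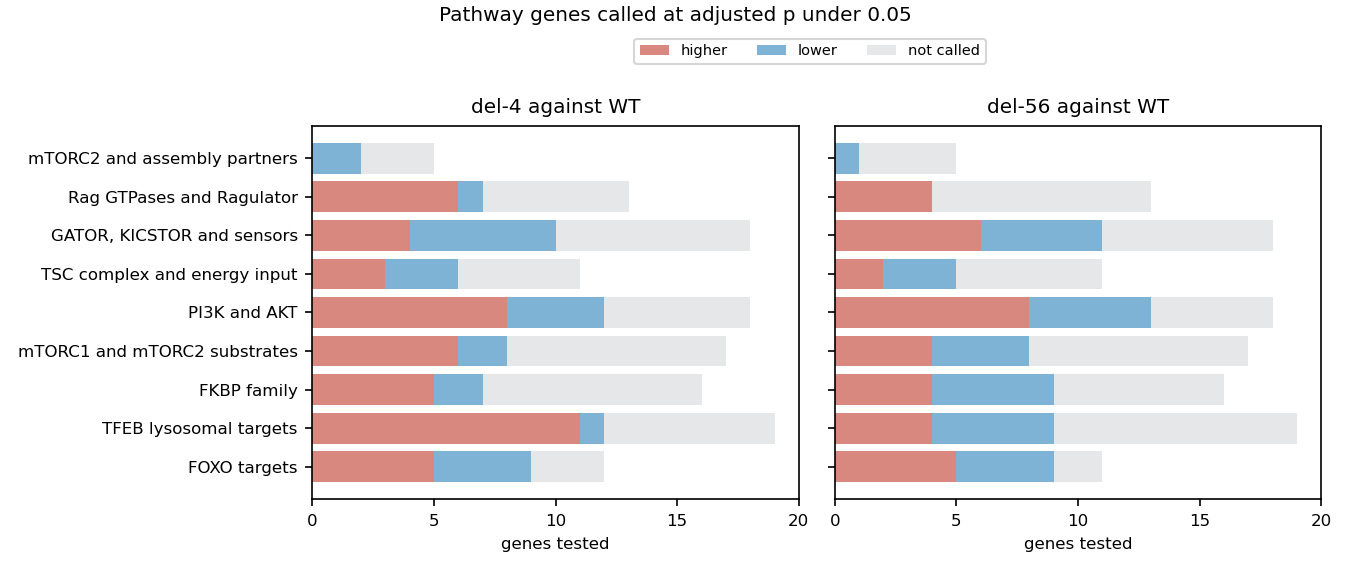
Number of genes tested in each list (horizontal axes) that were higher (red), lower (blue) or not called (grey) at an adjusted p under 0.05 in del-4 and del-56 against WT. The lysosomal targets of TFEB have 11 of 19 genes higher in del-4 and 4 of 19 in del-56.

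Several of these smaller calls rested on single libraries (adjusted p from limma throughout). *INSR* in del-4 was not called without del-4 replicate 1 or 3 or any 1 of WT replicates 1, 2 and 3 (0.0538 to 0.15), nor *RHEBL1* in del-4 without del-4 replicate 1 or 3 or WT replicate 1 or 2 (0.0527 to 0.104). In del-56 *EIF4EBP1* was not called without del-56 replicate 2 or 3 or any 1 of WT replicates 1, 2 and 3 (0.065 to 0.21), *FNIP1* without del-56 replicate 1 or 3 or WT replicate 2 or 3 (0.0811 to 0.115), *AKT2* without del-56 replicate 1 or WT replicate 1 or 3 (0.0681 to 0.0894), *IRS1* without del-56 replicate 2 or WT replicate 2 (0.0639 and 0.0718) and *PRKAG1* without del-56 replicate 3 (0.0699). *RPS6KB1* passed the test in del-56 when del-56 replicate 1 was left out, at 0.17 (adjusted p = 0.0077, limma). Rescaling to the same total also removed the calls of *INSR* in del-4, *AKT2* in del-56 and *FNIP1* in each clone. Of the list counts in del-56, the genes of PI3K and AKT that were higher numbered 5 with WT replicate 1 left out and 4 with WT replicate 3 left out, and those lower 3 without del-56 replicate 2 or replicate 2 of WT. The lower GATOR and sensor genes numbered 3 without del-56 replicate 3, WT replicate 2 or WT replicate 3, the lower substrates 2 without del-56 replicate 2, WT replicate 1 or WT replicate 2, the lower TFEB targets 3 without del-56 replicate 2 or replicate 2 of WT, and the higher TSC and energy genes 1 without del-56 replicate 3. The lower mTORC2 and assembly partners in del-56 numbered 2 without del-56 replicate 3, and the lower Rag and Ragulator genes 1 without WT replicate 2. In del-4 the higher FKBP genes numbered 3 without del-4 replicate 2, and the lower ones 1 without del-4 replicate 3 or WT replicate 2. The lower substrates in del-4 numbered 1 without del-4 replicate 1, del-4 replicate 2 or WT replicate 3, and the lower mTORC2 and assembly partners 1 without del-4 replicate 1 or 3 or WT replicate 1 or 2.

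The genes whose log2 values followed *FKBP1A* most closely over the 9 libraries were, after the readthrough gene that shares its reads, *NEFL* (a neurofilament, Pearson's r = 0.9963) and *SOAT1* (a sterol acyltransferase, r = 0.9961), among 13086 genes searched, of which 1038 had an r above 0.9. For *DEPTOR* they were *VWA2* (r = 0.9524), *CABP4* (r = 0.9411) and *BMAL1*, a clock gene (r = 0.9332), and 15 genes had an r above 0.9. The libraries of a clone share its state, so these values mostly describe differences among 3 clones.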

How the data were processed

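RNA-seq libraries of 3 cultures each of the LNCaP clones del-4, del-56 and WT were grouped by clone. The authors aligned paired-end, strand-specific reads to GRCh38 with STAR, used BEDTools multicov to count them on GENCODE version 38 (protein-coding genes), and divided each count by 1 DESeq2 size factor per library. The signal values deposited are these normalized counts. How transcripts of a gene were combined and whether strand was used in counting are not given in the sources used here. In all libraries 100% of values were whole multiples of 1 step, within 0.001 read, and 83.8% of values of 1 to 20 reads were even, so mates of a pair were mostly counted singly. Floors cover counting error only.

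Symbols, positions and merged exon lengths came from GENCODE version 44 (19905 of 19984 genes matched). Log2 of the normalized count plus 1 was tested in pairs of clones with limma 3.58.1 (variance trend) in R 4.3.3, where the mean was 1 or more, adjusted by Benjamini-Hochberg. For values relative to neighbours, the median of 50 neighbouring genes with a mean of at least 10, each centred over the 9 libraries, was subtracted. RefSeq promoters were found for 7 of the 10 genes. Other steps ran in Python 3.11.15. The limma fits, as measured and relative to neighbours, and the edgeR and DESeq2 fits were tested on simulated counts of del-4 against WT. The other steps were not tested on simulated data.

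As alternatives, each library was left out in turn, the pseudocount was set to 0.5 or 5, the filter was dropped or raised to 10, totals were equalized, values were quantile-normalized, the 9 libraries were fitted at once, replicate numbers entered as a block, and 24 neighbours or the whole chromosome were used. Count tests were planned on whole reads of all libraries. An automatic check of the recovered reads did not accept the step of del-4 replicates 2 and 3 and del-56 replicate 2, which is close to 1 read, so fits of all libraries were set aside after their calls had been seen. The edgeR 4.0.16 and DESeq2 1.42.0 values reported are of del-56 replicates 1 and 3 against the 3 WT libraries, an alternative chosen after seeing the data.

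The genes and lists were chosen with earlier results of these data known. Genes named beside the 10 were up to 3 per list that were called in 1 direction in both clones with a mean of at least 100 and the largest mean log2 fold change, some set singly (such as *PDCD4*), the nearest genes with a mean of at least 100, and the 3 most alike to *DEPTOR* and *FKBP1A*. Others on chromosome 16, and markers, were named after their values were seen. A few genes that these rules name are not reported here. P-values measure the spread between cultures of a clone.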

Additional observations from a re-analysis of the deposited data

Results flagged for a closer look

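In 3 of the 10 genes the change against WT differed between the deletion clones by the direct test of del-4 against del-56 (limma, over all genes). For *MLST8* the difference, del-4 minus del-56, was 0.29 on the log2 scale, lower than WT in all libraries of both clones and further in del-56. For *DEPTOR* it was -0.36, with del-4 libraries at 1021 to 1091 normalized counts and del-56 libraries at 1346 to 1394. For *AKT1S1* it was 0.15, and relative to its chromosomal neighbours 0.040 (adjusted p = 0.49, limma), since the neighbours also differed between the clones, by 0.13 at the median. The cause of these differences was not tested.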

How the results depend on the processing

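*FKBP1A*, *MTOR* and *MLST8* kept their direction and their call against WT in both clones under every alternative run, as did *AKT1S1* and *RHEB* in del-56. The number of the 10 genes called was 5 between del-4 and del-56 after rescaling to the same total. Relative to neighbours it was 3 in del-4 under quantile normalization and with the whole chromosome, and 5 in del-56 in 1 fit of all libraries, with 24 neighbours and with the whole chromosome. Leaving out 1 library gave 3 to 5 calls in del-4 (3 without del-4 replicate 1 or WT replicate 1), 5 to 7 in del-56 and 3 between them, and relative to neighbours 1 to 2 (2 without del-4 replicate 2), 2 to 4 and 2.

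Values near 0 changed sign. After rescaling to the same total the log2 fold changes in del-4 were -0.069 for *MAPKAP1*, -0.00010 for *RPTOR* and -0.034 for *AKT1*, and those between del-4 and del-56 were -0.024 for *RHEB* and -0.029 for *RICTOR*. Under quantile normalization *MAPKAP1* was at -0.020 and *AKT1* at -0.0094 in del-4, *PRR5* at 0.012 in del-56, and *FKBP1A* relative to neighbours at -0.0050 between the clones. With 24 neighbours *RICTOR* was at -0.082 between the clones. With 1 library left out, values in del-4 spanned -0.012 to 0.023 for *MAPKAP1*, -0.035 to 0.0080 for *RPS6KB1*, -0.098 to 0.026 for *TSC1* and -0.0021 to 0.072 for *RPTOR* relative to neighbours, and in del-56 -0.034 to 0.020 for *PRR5*. Between del-4 and del-56 they spanned -0.027 to 0.0089 for *FKBP1A*, -0.0045 to 0.049 for *RHEB*, -0.036 to 0.037 for *RPTOR* and -0.018 to 0.046 for *RICTOR*, and relative to neighbours -0.053 to 0.019 for *RPTOR* and -0.015 to 0.070 for *RICTOR*. Rescaling multiplies all counts of a library by 1 factor, so the signs it changed came with a shift shared by nearly all genes. The cause of the other sign changes was not tested.

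With the replicate number as a block, 5, 5 and 3 of the 10 genes were called, and 1, 2 and 3 relative to neighbours, *AKT1S1* in del-56 being lost (adjusted p = 0.0523). Where del-4 was 1 of the clones, deviations of same-numbered libraries correlated between 0.023 and 0.063. Those of other numbers correlated between -0.054 and 0.005. Between del-56 and WT the lowest same-numbered value was -0.053, and the highest value of other numbers was 0.044. All these values were small, so the numbers were not taken as pairs. First edgeR and DESeq2 fits on all libraries were set aside, because the reads of 3 libraries were not accepted, and are not reported. On 5 libraries edgeR called 6003, DESeq2 5879 and limma 5968 of 17470 genes in del-56, each with 5 of the 10, and *PRR5* was at 0.0035 in edgeR and in DESeq2. In del-56 the test called *RHEB* at -0.13 (log2, SE 0.037) and not *MAPKAP1* at 0.089 (SE 0.037). *DEPTOR* was not called in del-56 at 0.21 (SE 0.084).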
